A study of Mus musculus with 6 samples.

Results

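Primary cilium transport and transition zone genes were taken as 37 named genes, and E2F1 binding at them was read from chromatin immunoprecipitation followed by sequencing (ChIP-seq). The 37 were chosen by symbol for their known roles, out of 21900 protein-coding genes, and the rule uses no peak values. All cells were NIH/3T3, an established line of mouse fibroblasts, kept in 0.25% serum for 48 hours and then in doxycycline for 12 hours. The E2F1 group carried a stably integrated doxycycline-inducible E2F1 construct and the EV group an inducible empty vector, with 2 ChIP-seq libraries each. Starvation and doxycycline were therefore shared by both groups, and the groups differed in the construct. The labels do not say whether the lines were single clones or pools, and EV cells still have E2F1 of their own. Input DNA of EV cells, 2 samples, was not analysed here. Nothing in the labels says that libraries of a group came from separate cultures.

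The primary cilium is a single antenna that many resting cells grow from the mother centriole, and NIH/3T3 cells are a common model because starvation makes them ciliate. Intraflagellar transport (IFT) carries cargo along its axoneme in trains, with the IFT-B complex moving outward under kinesin and the IFT-A complex returning under dynein. The BBSome moves membrane proteins in and out, and the transition zone at the base gates entry. Cells lose the cilium as they re-enter the cell cycle. E2F1 is a transcription factor best known for driving the genes of the G1/S transition.

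A peak is a region that the authors' peak caller listed. Its fold enrichment is the read pileup at the summit over the local background, a value of the authors that served here for description and for ranks inside a single list. The E2F1 lists held 7836 and 8027 peaks and the EV lists 70 and 358. Every list starts just above a −log10 p of 10. At the lowest local background of the E2F1 lists, 1.85 and 1.86 reads, a pileup of 16 reads was needed to pass in each, a fold of 5.97 and 5.95. At a higher background more reads were needed and a lower fold could pass, as at Ift20 with 4.44 from 24 reads in replicate 1. A gene without a listed peak may carry signal that did not pass.

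A gene was counted when any base of a peak fell inside its annotated span or within 1000 bp of it. Of the 37 members, 22 had a peak in both E2F1 lists, 59.5% (Wilson 95% interval 43.5 to 73.7, counting error only). Over all protein-coding genes the share was 34.4%. Another 6 members had a peak in a single E2F1 list and 9 (24.3%) in neither, where 59.3% of all genes had none. A peak in either list was at 28 of 37 members (75.7%) and at 40.7% of all genes. By list, 23 members had a peak in E2F1 replicate 1, where 36.9% of all genes did, and 27 in replicate 2, where 38.2% did. Neither EV list had a peak at any of the 37. The EV lists reached only 8 genes (0.0365%) and 89 genes (0.406%) of all, so 0 of 37 is close to the background and is not a result about the members.

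Among genes with CpG-rich promoters, the members' share was close to that of all such genes. Promoter windows from RefSeq (GRCm38.p6), running from 250 bases before to 50 after an annotated start, were at hand for 33 of the 37, all but Ift80, Ift81, Ift122 and Tmem67. Each member left out this way had a peak in both E2F1 lists. Of the 33 with a window, 18 (54.5%) did, against 35.2% of all genes with a window. A window was called CpG-rich at an observed over expected CpG ratio of at least 0.6 with a GC content of at least 50%. Of the members 27 (81.8%) were CpG-rich, against 48.2% of the 17492 protein-coding genes with a window. Among CpG-rich genes 16 of 27 members (59.3%, 40.7 to 75.5) had a peak in both E2F1 lists, and so did 61.8% of all 8428. With other windows it was 2 of 6 members, Bbs4 and Ift27 (33.3%, 9.68 to 70.0), and 10.4% of all 9064. Members were also longer than most genes, with a median span of 31418 bp against 17146 bp. Counting only the 1000 bp around either gene boundary left the members at 22 and moved all genes to 30.9%.

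**Figure D1:**
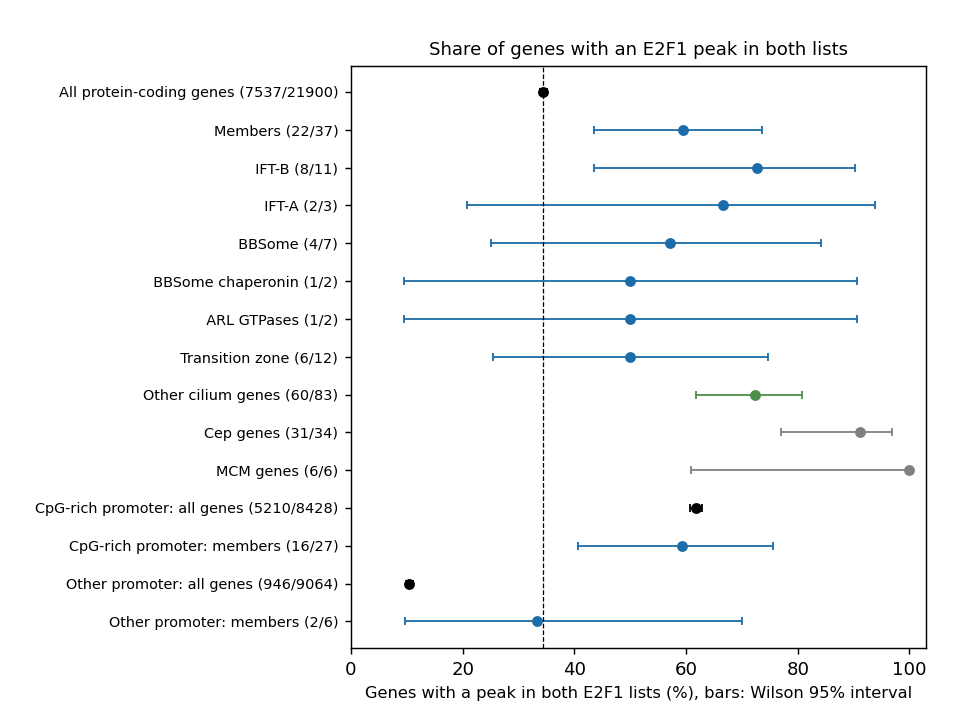
Share of genes with a peak in both E2F1 lists (%) for all protein-coding genes, for the members and their roles, for other gene lists and by promoter class; points are shares, bars are Wilson 95% intervals, and the dashed line marks all protein-coding genes. The members lie at 59.5% and all genes at 34.4%, while among CpG-rich promoters the values are 59.3% and 61.8%.

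The highest folds at members, those of Bbs7 and Ift80, came from peaks whose summits lay inside a neighbouring gene of the cell cycle. Bbs7, a BBSome subunit, had the highest fold of all members in replicate 2 and Ift80, an IFT-B subunit, in replicate 1. The Bbs7 peak spanned chr3:36570636-36572483 in replicate 1, with a fold of 25.4 and rank 460, and chr3:36570942-36572504 in replicate 2, with a fold of 50.05 and rank 192. Both summits lay inside Ccna2, the gene of cyclin A2, and 41546 and 41473 bp downstream of the Bbs7 start. At its own start Bbs7 had a second and weaker peak in each list, at chr3:36612897-36613413 and chr3:36613008-36613538, with folds of 9.13 and 7.70 (ranks 3954 and 5757) and summits 179 and 236 bp downstream. The higher fold was thus at the far end of Bbs7 and not at its start.

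Ift80 had a peak at chr3:69003978-69006758 in replicate 1, with a fold of 27.7 and rank 351. In replicate 2 it spanned chr3:69004269-69006157, with a fold of 21.1 and rank 1637. The summits were inside Smc4, which encodes a core subunit of condensin, 406 and 278 bp from its boundary and 464 and 336 bp from that of Ift80. The spans of Ift80 and Smc4 end and begin at 69004680 and 69004738, so a peak there cannot be given to either gene. B9d2, a B9-domain protein of the transition zone, had its peaks 5839 and 5843 bp downstream of its nearest start. They were centred 5 and 1 bp from the start of Tgfb1, the gene of a secreted growth factor, with folds of 13.1 (chr7:25686785-25689657, rank 2214) and 13.7 (chr7:25686782-25687272, rank 3247). No peak of either list lay at the B9d2 starts.

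Among the other IFT-B genes, Ift81 and Ift74, whose products pair to bind tubulin, were the highest. Ift81 had folds of 14.5 (rank 1841) and 13.3 (rank 3353) in E2F1 replicates 1 and 2, at chr5:122613801-122614796 and chr5:122613991-122614806. The nearest boundary of another protein-coding gene was at least 29529 bp from those summits. Ift74 had 2 peaks in each list. The peak at the start in its promoter entry, chr4:94614435-94614800 in replicate 1 and chr4:94614389-94615011 in replicate 2, had folds of 11.2 and 11.9 (ranks 2904 and 3806). An upstream peak, where the spans of Ift74 and Plaa meet, chr4:94602598-94603759 and chr4:94602779-94603548, had folds of 7.67 and 12.8 (ranks 4900 and 3489). Its summits were 205 and 136 bp from the boundary of the Ift74 span. The start in the promoter entry lies inside that span, 11430 and 11361 bp downstream of these summits. The remaining IFT-B peaks were weak. Ift88, a core subunit required to build cilia, had folds of 5.86 and 10.1, and Ift52, another core subunit, 6.12 and 6.32. Ift27 and Ift22, small GTPases of the complex, had 6.59 and 5.15, and 5.15 and 4.64. The latter, at chr5:136908143-136908421 and chr5:136908124-136908386, ranked 7173 and 7816, near the end of both lists.

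Ift20, which links the complex to the Golgi, had folds of 4.44 and 5.13, with ranks of 7608 and 7609. Its peak, chr11:78535695-78536144 and chr11:78535810-78536643, lay 378 and 330 bp upstream of its start and nearer to Tnfaip1. Of the 11 IFT-B genes 8 thus had a peak in both lists, 1, Ift57, only in replicate 2, and 2, Ift46 and Ift172, in neither.

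The IFT-A genes were 3. At Ift140 the fold was 7.25 in replicate 1 against 15.8 in replicate 2, the widest gap between the lists of any member with a peak in both, at a ratio of 2.17. Its summit also moved, from 416 bp upstream to 48 bp downstream of the start, and in replicate 1 the boundary of Cramp1l was nearer. Ift122 had folds of 8.65 and 8.21 beside Mbd4, a DNA repair glycosylase gene. Ift43 had a peak in replicate 2 only.

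BBSome genes were split. Of 7 subunits, 4 had a peak in both lists: Bbs7 as given, Ttc8 (folds 11.2 and 10.2), Bbs4 (9.22 and 5.95) and Bbs2 (7.48 and 7.32). The ratio of the Bbs4 folds, 0.645, was the lowest of the members, and its pileups were 26 and 16 reads. Bbs5 had a peak in replicate 2 only, and Bbs1 and Bbs9 in neither list. Of the chaperonin-like genes that help assemble the complex, Bbs12 had folds of 13.0 and 19.6 (ranks 2284 and 1856), at chr3:37312063-37313457 and chr3:37312111-37313521. Its summits lay 58 and 151 bp downstream of its start and 166 and 259 bp from that of Cetn4. The other, Bbs10, had a peak in replicate 2 only. Arl6, the small GTPase that recruits the BBSome to membranes, had folds of 11.8 and 11.2, with summits 2 and 21 bp from an annotated start. Arl13b, a GTPase of the ciliary membrane whose protein is widely used to stain cilia, had no peak in either list.

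At the transition zone, 6 of 12 genes had a peak in both lists. Besides B9d2 these included Nphp4, with folds of 11.0 (chr4:152477207-152478399, rank 3025) and 14.0 (chr4:152477208-152478157, rank 3166). Its summits lay 125 and 6 bp downstream of an annotated Nphp4 start inside its span. The nearest gene boundary was that of Kcnab2, 314 and 195 bp away. Rpgrip1l, a scaffold of the zone, had 9.30 and 17.0. Tmem216 had 9.50 and 7.57, Tmem67, which encodes meckelin, 5.15 and 5.42, and Tctn3, a tectonin family gene, 4.49 and 4.94. The last was the lowest member by mean rank, at 7589 and 7698, with pileups of 26 and 25 reads over backgrounds of 5.01 and 4.26. Its peaks spanned chr19:40611776-40612838 and chr19:40611666-40612491. The summits at Rpgrip1l lay 471 and 443 bp upstream of its start and inside Fto, with which it shares the site. Tctn1 had a peak in replicate 1 only and Tmem231 in replicate 2 only. Tctn2, Mks1, B9d1 and Cc2d2a had none, so that of the B9-domain genes Mks1, B9d1 and B9d2 only the last was counted, through the peak at Tgfb1.

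**Figure D2:**
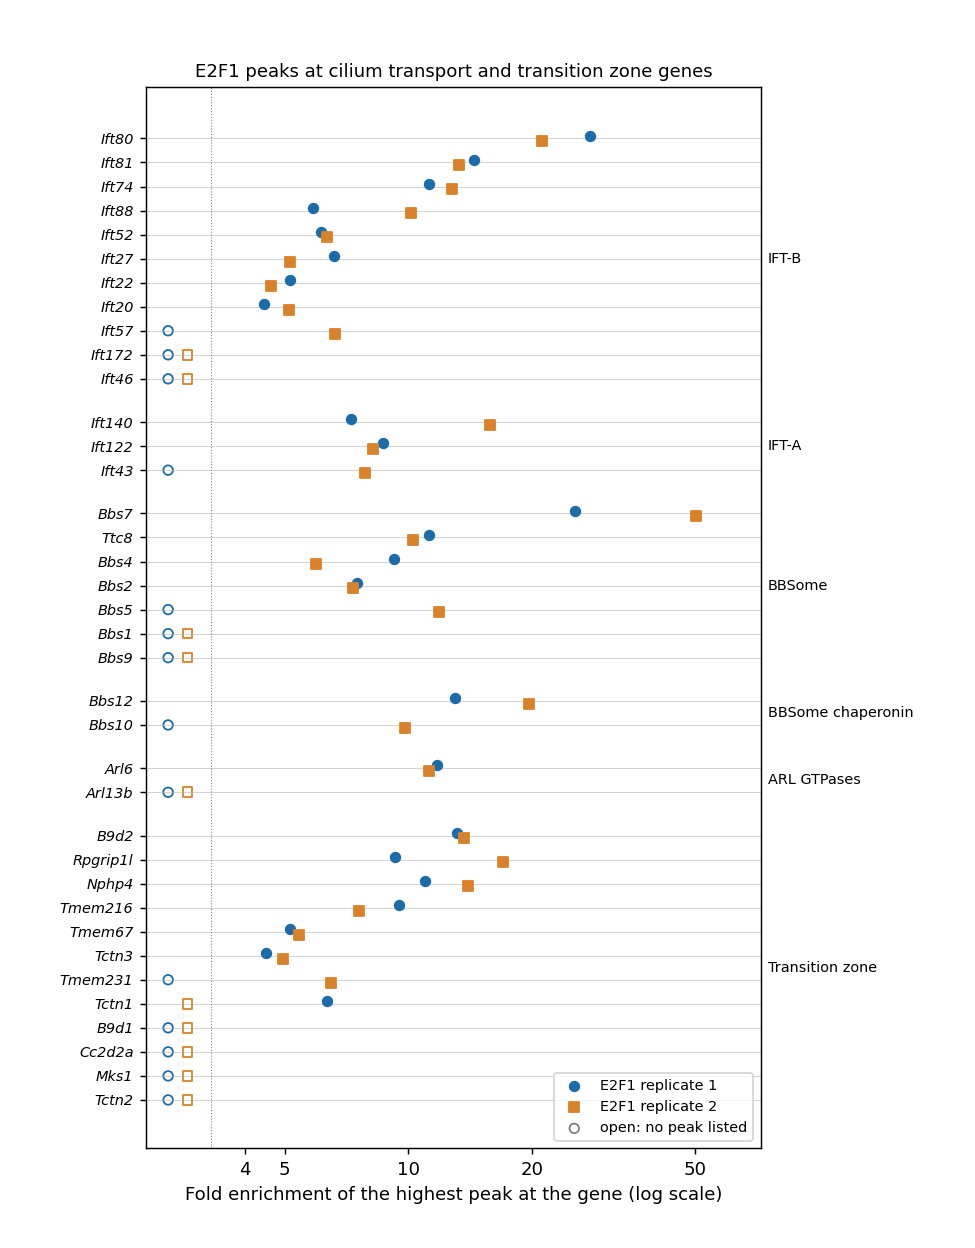
Fold enrichment (log axis) of the highest E2F1 peak at each of the 37 members, grouped by role, with circles for E2F1 replicate 1 and squares for replicate 2; open symbols left of the dotted line mark a list with no peak and have no value. Folds run from 4.44 at Ift20 to 50.05 at Bbs7, and 9 members have open symbols for both lists.

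The 6 members seen in a single list had folds under the median of their list, 9.19 in replicate 1 and 11.3 in replicate 2, apart from Bbs5. Bbs5 had 11.9 in replicate 2 (chr2:69647042-69647645, rank 3806), from 33 reads over a background of 1.86. Bbs10 had 9.83 (chr10:111298196-111298968, rank 4661) and Ift43 7.82 (chr12:86082596-86082909, rank 5689). Those of Ift57 (chr16:49699193-49699475, rank 6491) and Tmem231 (chr8:111933218-111933823, rank 6620) were 6.62 and 6.46. Tctn1 had 6.34 in replicate 1 (chr5:122264031-122264435, rank 5980), from 20 reads. All of these summits were within 212 bp of an annotated start of the member.

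Of the 9 members with no peak, Tctn2 was closest to one. A peak at Atp6v0a2 lay 1269 and 1263 bp outside its span, with folds of 7.25 and 7.04, and a window of 2500 bp would count it. For Ift172 the gap was 3890 and 3905 bp. For the other 7 it ran from 6259 bp at Arl13b to 115607 bp at Mks1.

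Ranked within its list, the highest peak at a member was of middling to low strength. A fold percentile of 100 stands for the strongest peak of a list, and the percentiles in both lists were averaged. The 22 members with a peak in both lists had a median of 45.0 (quartiles 21.5 and 60.8), and all 7537 genes with such peaks had 56.0 (34.9 and 76.6). Above 50 were 11 of 22 members, 50%, and 56.9% of all such genes. Only 6 members, Bbs7, Ift80, Bbs12, Ift81, B9d2 and Nphp4, had in both lists a peak at or above the list's median score, 16.2% of the 37, against 17.1% of all genes. Both of the highest, Bbs7 and Ift80, took their rank from peaks nearer to Ccna2 and Smc4. Bbs7 would also be counted through the weaker peaks at its own start.

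The replicates ordered the members alike. Over the 22 genes the folds in both lists had a Spearman's rho of 0.81, a description over genes that share libraries. For Ift74 it paired different sites. In replicate 1 this was the peak at the start in its promoter entry, and in replicate 2 the peak where its span meets that of Plaa. Fold was higher in replicate 2 for 12 members and in replicate 1 for 10, with a median ratio of 1.04. The median folds of the whole lists were 9.19 in replicate 1 and 11.3 in replicate 2. Most member peaks rested on few reads, with median pileups of 31 in both lists and ranges of 19 to 145 and 16 to 142.

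**Figure D3:**
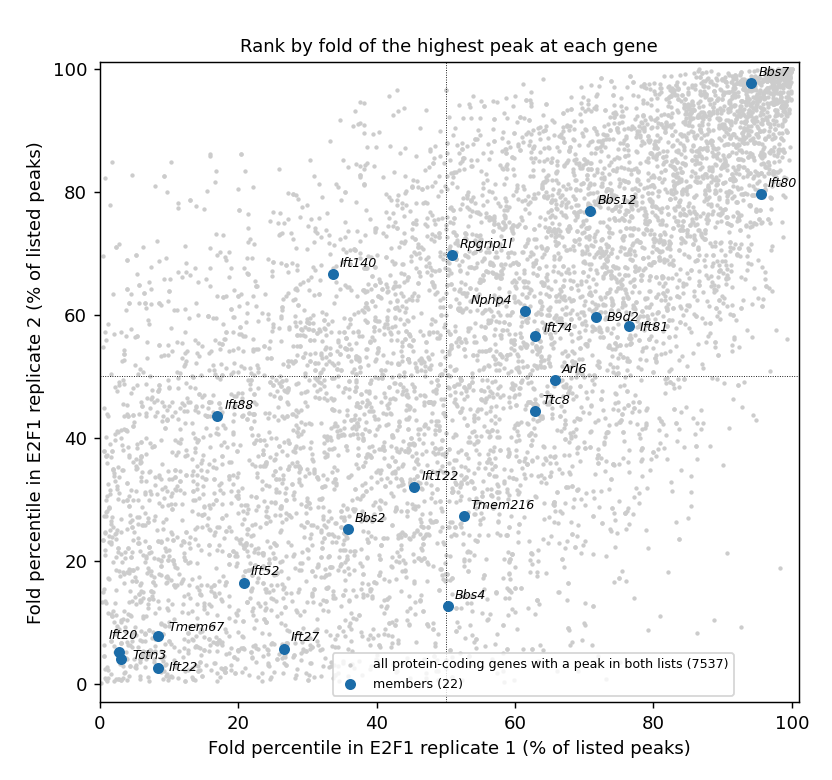
Fold percentile of the highest peak at each gene in E2F1 replicate 1 (horizontal) and replicate 2 (vertical), in percent of the listed peaks; grey points are the 7537 protein-coding genes with a peak in both lists and blue points the 22 members. Bbs7 and Ift80 lie at the upper right, and Tctn3, Ift20, Ift22 and Tmem67 at the lower left, with a member median of 45.0 against 56.0 for all genes.

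Most summits at members lay within 500 bp of a start, more of them downstream than upstream. The same positions were not counted over all listed peaks, so they are a description and not a trait particular to the members. Of the 21 replicate 1 peaks at members with a known start, 18 had their summit within 500 bp of it, 12 downstream and 6 upstream. In replicate 2 it was 22 of 25, with 17 downstream and 5 upstream. Starts are those of the promoter entries, so the Ift74 peak at its span's boundary near Plaa fell outside these counts. The median position within 500 bp was 120 bp downstream in replicate 1 and 50 bp in replicate 2. Peak widths had medians of 996 and 770 bp, beside 938 and 814 bp for the whole lists.

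Many members share their ends with another gene. For 9 of 25 member peaks in replicate 1 and 8 of 29 in replicate 2 the nearest boundary of a protein-coding gene was not the member's. That count was not made for the peaks at all genes, so it is not shown to be particular to the members. Giving each peak only to the gene with the nearest boundary left 15 members (40.5%), against 28.9% of all genes. It removed B9d2, Ift122, Ift140, Ift20, Ift80, Nphp4 and Rpgrip1l. The rule uses the ends of spans, so the Nphp4 start inside its span, 125 and 6 bp from the summits, did not count. Of the 16 members with another gene's boundary within 1000 bp of theirs, 13 had a peak in both lists (81.2%, 57.0 to 93.4), and of the 21 without, 9 (42.9%, 24.5 to 63.5). Over all genes the shares were 53.6% of 5439 and 28.1% of 16461. By summits within 1000 bp of an own start, the count was 17 of 33 members (51.5%), against 32.4% of all genes with a window.

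**Figure D4:**
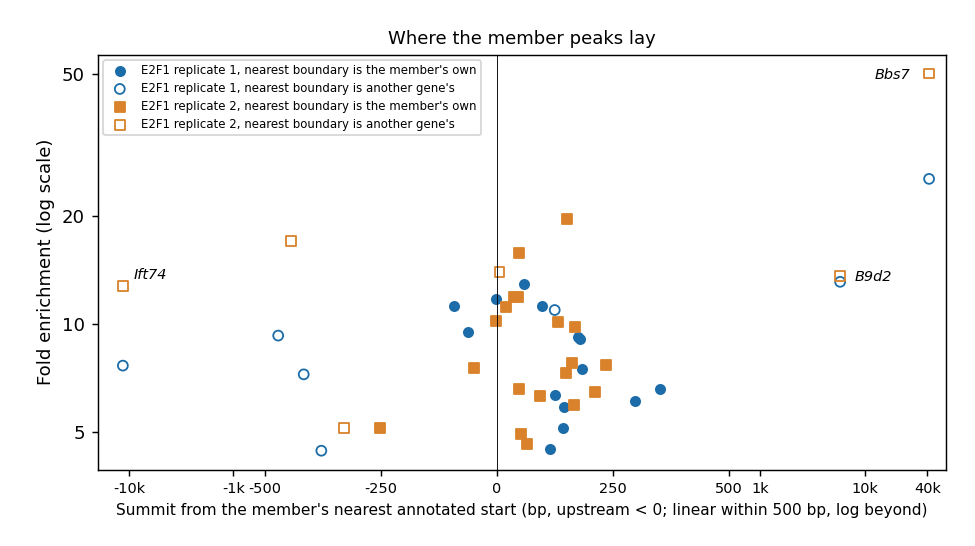
Position of each E2F1 peak summit relative to the nearest annotated start of its member (bp, upstream below 0, linear within 500 bp and logarithmic beyond) against fold enrichment (log axis), for members with a known start; filled symbols mark peaks whose nearest gene boundary is the member's own. Of the plotted peaks 18 in replicate 1 and 22 in replicate 2 lie within 500 bp of the start, while those of Bbs7 at Ccna2 and of B9d2 at Tgfb1 lie far downstream. The Ift74 peaks at the boundary with Plaa plot far upstream because the start in its promoter entry lies inside its span.

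Promoter letters were read for E2F-type cores, the letters TTNNCGC with each N being C or G, and for RFX-type cores, the letters GTTNCCA with N being G or A, on both strands. RFX factors are known regulators of cilium genes and bind the X-box, of which the latter is an arm. An E2F-type core was in the windows of 5 of 33 members (15.2%), and in 13.7% of all 17492 genes. This depended on the letters: with TTTNNCG, the core shifted by a base, it was 8 of 33 (24.2%) and 9.18% of all. Among members with a peak in both lists TTNNCGC was in 4 of 18 (22.2%), Ift140, Ift27, Ift52 and Tctn3, beside 24.1% of all 6156 such genes. With the shifted letters these shares were 33.3% and 14.8%. The fifth member with TTNNCGC was Mks1, which had no peak. The RFX-type core was in 10 of 33 member windows (30.3%) and in 7.27% of all. It was in 4 of 18 members with a peak in both lists, Ift27, Ift88, Nphp4 and Tctn3, in 1 of 6 with a peak in a single list, Ift57, and in 5 of 9 without a peak, Arl13b, B9d1, Bbs1, Mks1 and Tctn2. Over all genes with a window the share was 6.55% with a peak in both lists. It was 7.67% in the rest, which pools genes with a peak in a single list and in neither. A match is a run of letters and not a binding site, and motifs outside the 300 bases were not searched.

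Windows follow for the highest members with an entry (Bbs7, Bbs12), the lowest (Tctn3, Ift20) and the first members by symbol without a peak (Arl13b, B9d1). Those of Ift140, Ift27 and Mks1, which hold an E2F-type core, and of Tgfb1, where the peak counted for B9d2 lies, were added after their values were seen. Each is the RefSeq sequence of GRCm38.p6, read 5′ to 3′ on the gene's strand, with the E2F-type and RFX-type cores in capitals and the annotated start following the first 250 bases.
Bbs7, chr3:36613340-36613639, minus strand: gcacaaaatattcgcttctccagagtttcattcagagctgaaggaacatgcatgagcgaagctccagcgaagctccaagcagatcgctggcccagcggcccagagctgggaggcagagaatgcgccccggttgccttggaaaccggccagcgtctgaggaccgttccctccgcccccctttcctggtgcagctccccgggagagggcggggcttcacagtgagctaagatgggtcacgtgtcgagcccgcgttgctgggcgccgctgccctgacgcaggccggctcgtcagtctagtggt
Bbs12, chr3:37312304-37312603, plus strand: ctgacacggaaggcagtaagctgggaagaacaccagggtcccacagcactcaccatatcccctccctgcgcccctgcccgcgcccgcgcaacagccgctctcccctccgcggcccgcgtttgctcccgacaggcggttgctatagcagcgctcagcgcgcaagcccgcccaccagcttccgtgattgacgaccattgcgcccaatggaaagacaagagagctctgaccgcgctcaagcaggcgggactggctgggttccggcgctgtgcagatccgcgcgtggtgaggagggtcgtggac
Tctn3, chr19:40612182-40612481, minus strand: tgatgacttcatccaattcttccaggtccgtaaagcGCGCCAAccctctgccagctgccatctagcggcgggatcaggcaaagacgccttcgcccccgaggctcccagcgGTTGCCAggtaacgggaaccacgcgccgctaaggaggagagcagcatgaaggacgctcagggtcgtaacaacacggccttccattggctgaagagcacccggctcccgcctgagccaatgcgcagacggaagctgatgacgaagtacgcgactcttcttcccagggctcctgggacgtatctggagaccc
Ift20, chr11:78536111-78536410, plus strand: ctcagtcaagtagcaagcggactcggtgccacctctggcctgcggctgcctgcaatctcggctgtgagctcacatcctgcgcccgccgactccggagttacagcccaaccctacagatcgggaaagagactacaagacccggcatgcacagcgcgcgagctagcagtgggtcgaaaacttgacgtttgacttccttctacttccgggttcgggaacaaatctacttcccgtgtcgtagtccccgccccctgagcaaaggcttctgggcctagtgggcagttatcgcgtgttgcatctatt
Arl13b, chr16:62846991-62847290, minus strand: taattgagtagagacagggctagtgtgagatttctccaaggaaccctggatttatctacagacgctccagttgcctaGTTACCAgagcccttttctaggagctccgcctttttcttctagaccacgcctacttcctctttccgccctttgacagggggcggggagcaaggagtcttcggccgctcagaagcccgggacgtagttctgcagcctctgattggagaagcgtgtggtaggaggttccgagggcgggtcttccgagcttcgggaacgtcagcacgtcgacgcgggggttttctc
B9d1, chr11:61504894-61505193, plus strand: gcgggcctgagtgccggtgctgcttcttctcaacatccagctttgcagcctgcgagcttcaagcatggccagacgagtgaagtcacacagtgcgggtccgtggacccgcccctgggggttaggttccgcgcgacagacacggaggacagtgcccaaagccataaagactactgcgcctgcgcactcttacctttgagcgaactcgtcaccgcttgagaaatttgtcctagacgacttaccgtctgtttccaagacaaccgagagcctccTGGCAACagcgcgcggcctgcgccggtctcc
Ift140, chr17:25015836-25016135, plus strand: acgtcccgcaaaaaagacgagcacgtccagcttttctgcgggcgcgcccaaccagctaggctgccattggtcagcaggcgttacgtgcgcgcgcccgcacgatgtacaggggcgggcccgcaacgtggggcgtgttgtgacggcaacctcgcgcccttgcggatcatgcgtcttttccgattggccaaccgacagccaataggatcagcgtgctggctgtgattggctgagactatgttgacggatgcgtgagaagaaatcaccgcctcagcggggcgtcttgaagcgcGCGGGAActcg
Ift27, chr15:78174032-78174331, minus strand: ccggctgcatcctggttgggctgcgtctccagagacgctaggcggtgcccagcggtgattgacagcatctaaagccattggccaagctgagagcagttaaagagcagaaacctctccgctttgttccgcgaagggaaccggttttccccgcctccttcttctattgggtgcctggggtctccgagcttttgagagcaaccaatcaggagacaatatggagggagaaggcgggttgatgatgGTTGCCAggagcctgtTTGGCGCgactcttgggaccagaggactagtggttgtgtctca
Mks1, chr11:87852965-87853264, plus strand: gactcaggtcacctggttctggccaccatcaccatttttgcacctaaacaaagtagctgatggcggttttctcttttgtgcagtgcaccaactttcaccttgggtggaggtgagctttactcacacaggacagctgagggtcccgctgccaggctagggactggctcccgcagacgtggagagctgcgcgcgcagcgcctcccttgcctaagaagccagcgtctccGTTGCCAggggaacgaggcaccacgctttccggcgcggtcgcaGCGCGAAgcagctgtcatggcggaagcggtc
Tgfb1, chr7:25686752-25687051, plus strand: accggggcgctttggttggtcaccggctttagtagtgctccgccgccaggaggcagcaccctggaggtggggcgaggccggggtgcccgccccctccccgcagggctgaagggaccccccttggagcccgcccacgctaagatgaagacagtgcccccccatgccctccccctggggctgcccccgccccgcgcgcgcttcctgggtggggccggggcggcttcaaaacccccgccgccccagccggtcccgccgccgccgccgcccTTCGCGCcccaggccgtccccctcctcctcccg
The Bbs7, Bbs12 and Ift20 windows held neither core, and peaks covered the starts of Bbs7 and Bbs12 in both lists and that of Ift20 in replicate 2. In Ift140 the E2F-type core began 39 bp downstream of the start. The Ift140 summit lay 416 bp upstream of that start in replicate 1 and 48 bp downstream in replicate 2. The Ift27 summits lay 352 bp downstream of its start in replicate 1 and 252 bp upstream in replicate 2. The Ift27 window held an RFX-type core 9 bp before the start and an E2F-type core 7 bp after it. Mks1 held the same pair of kinds, 24 bp before and 19 bp after, and had no peak in either list. Tctn3, the lowest member by rank, held an RFX-type core 140 bp and an E2F-type core 214 bp before its start. In the Tgfb1 window the core began 17 bp after the start.

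The rest of the cilium pathway was taken as 83 further genes, a list drawn up here with earlier results of these data known. Of these 60 (72.3%, 61.8 to 80.8) had a peak in both E2F1 lists, with a median fold percentile of 57.7, beside 56.0 for all genes with such peaks. Their median span was 39774 bp. Counting only the 1000 bp around either gene boundary left 52 of the 83 (62.7%). By that count the members stayed at 22 of 37 (59.5%), and all genes were at 30.9%. No test between lists was made. By role it was 13 of 14 other transition zone and inversin genes, 9 of 10 Hedgehog pathway genes, 8 of 9 distal appendage and initiation genes, 6 of 8 membrane cargo genes and 5 of 7 RFX and FOXJ1 genes. Among other IFT genes it was 6 of 11, among disassembly genes 5 of 9, among BBSome partners 4 of 6 and among cilium motors 4 of 9. The highest were Gli3, a Hedgehog transcription factor, with folds of 36.2 and 43.4, Cep41, with 32.4 and 42.2, and Kif24, a kinesin that restrains cilium formation, with 24.2 and 45.1. The RFX genes Rfx2 (19.1 and 37.4), Rfx3 (27.6 and 18.8) and Rfx1 (11.7 and 18.2) had peaks in both lists, as did Rfx7 and Foxj1.

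A single list held the peak of 6 of the 83, Kif3b and Trim32 in replicate 1 and Arl3, Evc2, Mkks and Nedd9 in replicate 2. Neither list had a peak at Dync2h1, Dync2li1, Fbf1, Hdac6, Inpp5e, Kif17, Kif3a, Lztfl1, Pifo, Rabl2, Rfx4, Rfx5, Tmem218, Ttc21b, Ttc30a2, Ttc30b or Wdr19. Only Smo, the Hedgehog transducer, had an EV peak, in replicate 2, at chr6:29748079-29748536 with a fold of 1.85. The highest E2F1 peaks at Smo had folds of 18.0 and 16.9, and whether they lay at the EV site was not examined. Beside these lists, 31 of 34 genes named Cep and a number, mostly centrosomal, had a peak in both E2F1 lists (91.2%, 77.0 to 97.0, with 6 genes shared with the 83), at a median percentile of 65.3. By gene boundaries only, 29 of these 34 (85.3%) were counted. The MCM helicase genes, which load at replication origins, had one in 6 of 6 (61.0 to 100), at 82.1.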

How the data were processed

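E2F1 ChIP-seq peak lists of 2 E2F1 and 2 EV libraries were analysed, grouped by the sample titles. FastQC, Trimmomatic, Bowtie2, MACS2, ChIPseeker and build mm10 are named in the submitters' processing notes. Versions, the role of each tool, the antibody and the control of each list are not given in the sources used here. For every peak the deposited lists give a score of the authors, their fold enrichment as a ratio, a −log10 p and a −log10 q. The deposited score equalled 10 times the −log10 q, rounded down, for 99.9% of peaks in E2F1 replicate 1 and 99.8% in replicate 2. Coordinates are counted from 1.

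Gene spans came from a RefSeq table of GRCm38.p6, in which all 37 member symbols were found. Pileup and local background were solved from fold and −log10 p with a pseudocount of 1 under a Poisson upper tail, within 5% of the step between pileups, for 99.9% of the peaks of each E2F1 list. Library totals are not known, so that background is the only measure of depth. With several peaks at a gene the highest fold stood for it. Counting and recovery were tested on simulated data. Python 3.11.15, numpy 2.4.6, pandas 2.3.3 and scipy 1.17.1 were used.

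The members, gene lists and settings were chosen with earlier results of these data known. No significance test was made: shares are set beside all protein-coding genes. Named with intervals are the 6 highest and 3 lowest members by mean fold percentile, those in a single list, and those with several peaks in a list. A part of the rule for members with peaks only away from their boundaries named none. The alternatives were other windows, gene boundaries only, a stricter score, overlap rules, summits, single lists, other measures of strength and shifted motif letters.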

Additional observations from a re-analysis of the deposited data

How the results depend on the processing

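Of 64 alternatives over 8 results, 54 stayed within 1.5 times the count or within the spread between the lists. Keeping only peaks whose score reached the median of their list cut the counts with a peak in both E2F1 lists to 6 members, 30 other cilium genes, 19 Cep genes and 3743 of all genes, since weaker peaks are removed by construction. Of the 6 MCM genes 5 were kept. The other counts of members ran from 15 to 23, apart from single lists. Without E2F1 replicate 1 or 2 the counts were 27 and 23 members, 64 and 62 other cilium genes, 32 and 31 Cep genes, 6 and 6 MCM genes and 8364 and 8085 of all genes. Without either EV replicate the count of members with an EV peak stayed at 0, also with a window of 2500 bp. The members' median percentile, 45.0 by fold, was 39.0 by score and 32.5 by pileup, where all genes had 56.4 and 56.3. It was 39.9 with a window of 2500 bp, 31.4 with only the gene of the nearest boundary (all genes 55.8), settings that change which members count, and 43.9 to 50.6 without one of the E2F1 replicates. The assignment to the nearest boundary and to an own start were chosen after seeing the data. With the motif letters shifted by a base, to TTTNNCG with each N being C or G, 8 of 33 member windows held one (24.2%) in place of 5, beside 9.18% of all. No paired analysis was possible because neither EV list has a peak at a member, so no EV value exists to pair with an E2F1 value of the same replicate number. The filter just above a −log10 p of 10 limits the counts to sites of at least 16 reads in the E2F1 lists, 17 in EV replicate 1 and 13 in EV replicate 2, each at the lowest background of the list.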
